A study of Mus musculus with 16 samples.

Results

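The genes described here are 10 genes of bile acid synthesis, conjugation, sensing and transport in mouse liver, namely Cyp7a1, Cyp8b1, Cyp27a1, Cyp7b1, Slc27a5, Baat, Nr1h4, Nr0b2, Slc10a1 and Abcb11. They were chosen by name and not by a cut on their values, though with earlier results of these data known. Every probe that carried one of the names was taken. They are 10 of the 19096 genes that had a symbol on the array, and 12 probes measured them. The RNA came from male mice of 57 weeks, from parts of the liver outside tumors, with 1 array per mouse and 4 mice in each of 4 groups. Every mouse, the reference groups included, had been injected at 5 weeks of age with 90 mg/kg of the liver carcinogen diethylnitrosamine (DEN). The groups were wild type mice with DEN alone (WT DEN), wild type mice that also drank phenobarbital (PB), a liver tumor promoter, at 0.5 g/l from 7 to 57 weeks of age (WT DEN + PB), and Gadd45b null mice with the same treatments (KO DEN and KO DEN + PB). The WT mice were C57BL/6J. The stock name of the null line, B6;129S6-Gadd45b tm1Flv/J, holds a second strain, whereas the study also describes the line as being on C57BL/6J, so a strain difference and the null allele cannot be told apart in comparisons of KO with WT. The null allele was present in all cells of the body, and no group without DEN was analysed here.

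Bile acids are made from cholesterol in hepatocytes. In the classic pathway Cyp7a1 adds the first hydroxyl group and sets the rate, and Cyp8b1 directs the product to cholic acid. In the alternative pathway Cyp27a1 oxidizes the side chain and Cyp7b1 hydroxylates the resulting oxysterol. Slc27a5 couples bile acids to coenzyme A and Baat then joins them to taurine or glycine. Slc10a1 takes conjugated bile acids up from the blood, and Abcb11 exports them into the bile canaliculus. Nr1h4, the farnesoid X receptor, senses bile acids, and its target Nr0b2, the small heterodimer partner, represses Cyp7a1 and Cyp8b1. PB activates the nuclear receptor CAR, which controls genes of drug metabolism and transport, and Gadd45b is one of the genes that PB induces through it.

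Values are log2 of the processed signal minus the 75th percentile of that array, so that 0 is the signal of a probe at that percentile, and changes are differences on this log2 scale. The 75th percentile lay between 137 and 294 units of signal over the 16 arrays, and 58.3% to 67.7% of spots were well above background. Gadd45b, the targeted gene, was well above background on all 8 WT arrays and on no KO array, and it was at least 23.6-fold lower in KO under DEN and at least 44.8-fold lower under DEN + PB. All 12 probes of the bile acid genes were well above background on all 16 arrays. A hepatocyte marker list was well above background on every array (8 of 8 genes), as the label of liver requires. In tissue RNA, fewer cells of a type and less RNA per cell cannot be told apart.

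None of the 10 genes passed the test (limma, Benjamini-Hochberg adjusted p under 0.05 over all probes tested, and 1.5-fold) in any of the 7 comparisons. For the PB effect in WT (DEN + PB minus DEN) 0 of 10 were called, against 0.737% of the 13302 genes tested. For the PB effect in KO 0 of 10 were called, against 2.12% of all genes, and for the difference of these effects 0 of 10, against 0%. Between genotypes (KO minus WT) 0 of 10 were called under DEN, against 2.73% of all genes, and 0 of 10 under DEN + PB, against 7.56%. For the PB effect averaged over both genotypes 0 of 10 were called, against 2.11%, and for the genotype effect averaged over both treatments 0 of 10, against 8.8%. At these shares, 0 calls among 10 genes is near the background. In the order just given, 1, 2, 1, 2, 0, 1 and 0 of the 10 genes had an unadjusted p under 0.05. Without moderation of the variances across probes 0 of the 10 genes were called as well.

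**Figure D1:**
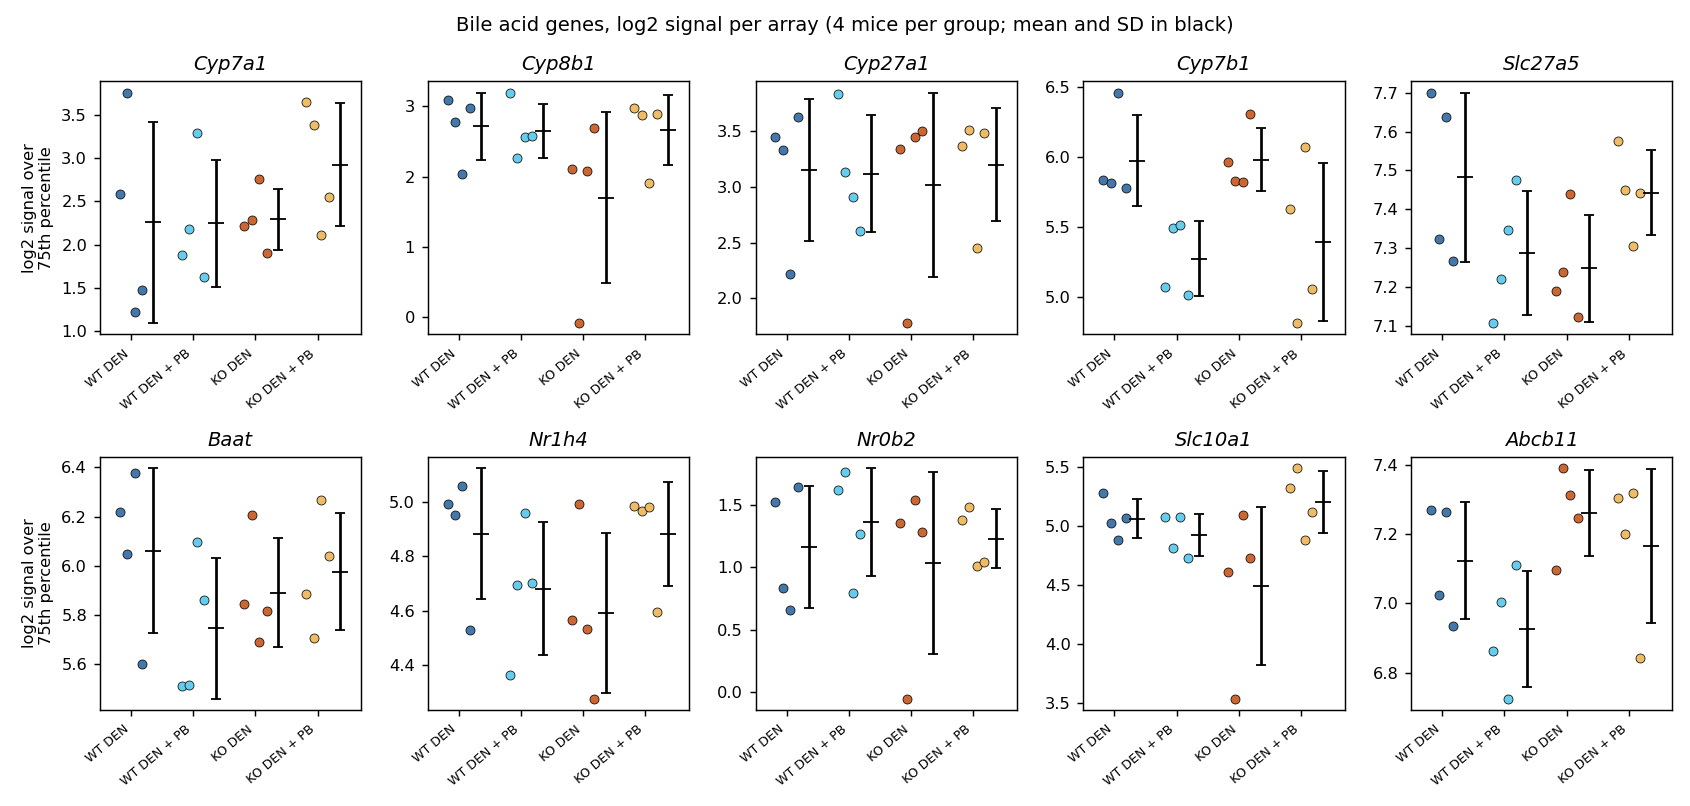
Log2 signal over the 75th percentile of the array (vertical axis, a range of its own in each panel) of the 10 bile acid genes in the 4 groups; each point is 1 mouse, and the black mark and bar are the mean and SD of 4 mice. The groups overlap in nearly every panel, Cyp7b1 lies lower in WT DEN + PB than in WT DEN, and 1 KO DEN array (replicate 2) sits below all others for Cyp8b1, Cyp27a1, Nr0b2 and Slc10a1.

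The spread between mice differed widely among the genes. The SD within groups was 0.80 for Cyp7a1 and 0.73 for Cyp8b1, larger than for 97.9% and 96.8% of the genes tested, and 0.64 for Cyp27a1. It was 0.16 for Slc27a5 and 0.17 for Abcb11, larger than for only 6.71% and 10.4% of genes. These 3 oxidizing enzymes of synthesis varied from mouse to mouse far more than the coenzyme A ligase and the canalicular exporter, whose highest and lowest arrays of 16 were only 1.51-fold and 1.59-fold apart. For Cyp8b1 the highest and lowest arrays were 9.63-fold apart, and for Cyp7a1 5.83-fold.

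For some of the genes 1 mouse carried much of this spread. Without the array KO DEN replicate 2 the SD was 0.44 for Cyp8b1 and 0.22 for Slc10a1, down from 0.73 and 0.38, whereas that of Cyp7a1 was 0.83. On the array KO DEN replicate 2, 4 of the 10 genes had their lowest value of all 16 arrays, whereas 9.83% of all genes tested had their lowest value there. These were Cyp8b1 at -0.08, Cyp27a1 at 1.78, Nr0b2 at -0.05 and Slc10a1 at 3.54, which lay 2.72, 1.57, 1.38 and 1.51 below the median of each gene. Abcb11 had its highest value of 16 arrays, 7.39, on the same array, 0.24 above its median. Of all genes tested 13.5% had their highest value there. Cyp7a1 at 2.29 and Cyp7b1 at 5.83 were at neither end of theirs. Among the 8 hepatocyte markers it ranked, from the lowest of 16 arrays, 2 for Serpina1c, 7 for Cps1, 9 for Ttr, 11 for Tat, 12 for Alb, 14 for Apoa1, 15 for Ahsg and 16 for Hpx. It had the highest value of 16 arrays for 6 of 12 acute phase genes, a list chosen after values were seen, and for 13.5% of all genes tested. Among the 6 was Saa2 at 6.72, against 3.69 to 5.50 on the 12 arrays of the other groups. The part of this acute phase signal in the bile acid genes was not tested.

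**Figure D2:**
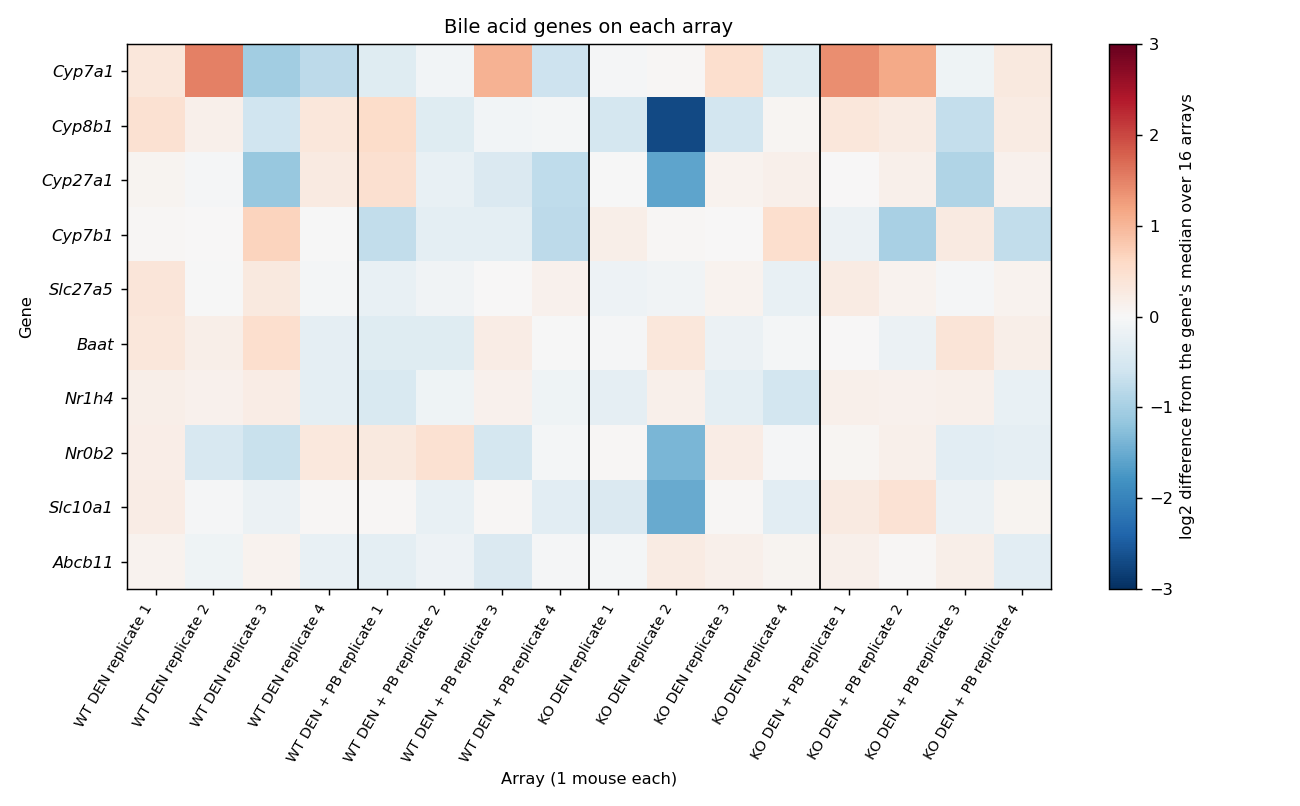
Log2 difference of each bile acid gene (rows) from its own median over 16 arrays (columns, 1 mouse each, black lines between groups); red is above and blue below the median. The deepest blue cells fall on KO DEN replicate 2, where Cyp8b1 was 2.72, Cyp27a1 1.57, Slc10a1 1.51 and Nr0b2 1.38 below the median, while Slc27a5, Baat, Nr1h4 and Abcb11 stayed pale on all arrays.

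The same 4 genes varied together over all 16 arrays, in part through this mouse, and some of their pairs did so only weakly without it. Of 45 pairs among the 10 genes, 7 had a Pearson correlation over 0.6 between deviations from the group means over 16 arrays, given here as a description since all values of an array share 1 RNA sample and 1 scaling. The highest was 0.91 for Cyp8b1 with Cyp27a1, which was 0.86 over 15 arrays without KO DEN replicate 2. Cyp8b1 with Slc10a1 had 0.86 and 0.57 without that array, and Cyp27a1 with Nr0b2 had 0.80 and 0.64. Cyp8b1 with Nr0b2 had 0.76 and 0.44 without it, and Nr0b2 with Slc10a1 0.75 and 0.39. Without the array 4 pairs were over 0.6, among them Baat with Nr1h4 (0.61). The lowest of the 45 pairs was -0.80 for Baat with Nr0b2, and -0.81 without the array. Baat is represented here by its brighter probe, which its second probe did not follow (r = -0.13 over 16 arrays). On KO DEN replicate 2 the brighter probe was the highest of its group, at 6.21, and the second the lowest, at 2.85.

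The promoter sequences of these 4 genes are shown because their signals moved together between mice. That of Abcb11 is shown because it had its highest value on KO DEN replicate 2, as 13.5% of all genes tested did. The windows are the 150 bases before a transcription start, taken from RefSeq on GRCm38.p6, where 6 of the 10 genes had a window and Slc10a1 had a pair of them, with capitals for each match to TATAAA or AGGTCA, read on either strand. The Cyp8b1 window is chr9:121916306-121916455 on the minus strand, the Cyp27a1 window chr1:74713385-74713534 on the plus strand and the Nr0b2 window chr4:133553226-133553375 on the plus strand. The Slc10a1 windows are chr12:80968706-80968855 and chr12:80968080-80968229, and the Abcb11 window is chr2:69342617-69342766, all on the minus strand.
Cyp8b1: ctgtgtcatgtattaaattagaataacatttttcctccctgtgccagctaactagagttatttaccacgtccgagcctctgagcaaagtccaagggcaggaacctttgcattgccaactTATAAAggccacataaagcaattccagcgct
Cyp27a1: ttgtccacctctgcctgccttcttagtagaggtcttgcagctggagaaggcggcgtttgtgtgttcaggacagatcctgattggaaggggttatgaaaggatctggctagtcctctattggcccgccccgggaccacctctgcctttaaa
Nr0b2: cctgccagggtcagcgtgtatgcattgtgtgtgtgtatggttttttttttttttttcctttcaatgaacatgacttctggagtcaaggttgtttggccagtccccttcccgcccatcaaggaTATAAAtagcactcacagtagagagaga
Slc10a1, first start: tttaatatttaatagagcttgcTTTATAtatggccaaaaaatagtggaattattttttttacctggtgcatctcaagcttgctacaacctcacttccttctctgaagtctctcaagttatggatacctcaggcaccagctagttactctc
Slc10a1, second start: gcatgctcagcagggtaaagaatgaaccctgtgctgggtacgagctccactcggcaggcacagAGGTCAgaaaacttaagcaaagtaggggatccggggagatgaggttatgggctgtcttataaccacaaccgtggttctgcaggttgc
Abcb11: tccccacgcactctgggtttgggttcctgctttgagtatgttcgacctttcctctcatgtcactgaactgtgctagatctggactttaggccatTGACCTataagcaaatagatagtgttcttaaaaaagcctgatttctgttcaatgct

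TATAAA, the core of the TATA box, began 31 bases before the start in Cyp8b1 and 28 bases before it in Nr0b2. On the opposite strand it lay 128 bases before the first start of Slc10a1, where it reads TTTATA. It occurred on either strand in the 250 bases before the start in 12.4% of 32851 RefSeq windows. AGGTCA, the half-site that many nuclear receptors bind, lay 87 bases before the second start of Slc10a1 and, on the opposite strand as TGACCT, 56 bases before the start of Abcb11. It also lay 214 bases before the start of Nr1h4, outside the bases shown, and 14.0% of all windows held it. The longer form CAAGGTCA, which 1.33% of windows held, and an inverted repeat of AGGTCA with 1 spacer base were not found in the windows of the bile acid genes. Cyp27a1 held no match to any of these motifs in the bases shown.

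In the classic pathway Cyp7a1 showed no separation between groups. Its values were 2.59, 3.76, 1.22 and 1.47 in WT DEN and 1.88, 2.18, 3.30 and 1.63 in WT DEN + PB. They were 2.22, 2.29, 2.76 and 1.90 in KO DEN and 3.65, 3.39, 2.11 and 2.55 in KO DEN + PB. The groups overlapped in each comparison, and on this probe WT DEN alone held the highest and the lowest of the 16 values. The PB effect was -0.01 in WT, with a 95% interval of -1.07 to 1.04, and 0.63 in KO, with an interval of -0.42 to 1.69 (limma adjusted p = 1.000 and 0.720). Intervals of this width do not show that PB left Cyp7a1 alone. A second probe of Cyp7a1, dimmer on every array, followed the first with r = 0.81 and Spearman's rho = 0.70 over 16 arrays. The probes differed on genotype, however. KO minus WT was 0.03 by the first and -0.52 by the second under DEN, and 0.68 and 0.01 under DEN + PB, none of them called. On the second probe KO DEN + PB held the highest and the lowest value, 1.07 and -0.72.

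Cyp8b1 was the gene with the widest range of group means, 1.02 from lowest to highest, and KO DEN was the low group. Its values were 3.09, 2.78, 2.03 and 2.98 in WT DEN and 3.18, 2.27, 2.56 and 2.58 in WT DEN + PB. They were 2.11, -0.08, 2.09 and 2.69 in KO DEN and 2.98, 2.87, 1.91 and 2.89 in KO DEN + PB. The means of WT DEN, KO DEN + PB and WT DEN + PB lay within 0.07 of each other, less than any of their SDs (0.48, 0.50 and 0.39), whereas KO DEN had a mean of 1.70 with an SD of 1.22. KO minus WT under DEN was -1.02 ± 0.46 (SE, limma adjusted p = 0.221, exact p = 0.114). The PB effect in KO was 0.97 ± 0.46 (adjusted p = 0.414, exact p = 0.143) and in WT -0.07 (adjusted p = 0.996). Without KO DEN replicate 2, KO minus WT under DEN was -0.43 and the PB effect in KO 0.37, both less than the values with it by over 1.5 times. Within single slides KO minus WT under DEN was -3.18 on the slide that held this array and 0.07 on the other slide with both groups, and the PB effect in KO was 2.97, 0.77 and -0.47 on 3 slides.

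The 3 genes whose signal was most like that of Cyp8b1 over the 16 arrays, of 13301 compared, were Fggy with r = 0.92 (rho = 0.90), 1700037H04Rik with r = 0.91 (rho = 0.88) and Coq6 with r = 0.91 (rho = 0.74). Without KO DEN replicate 2 these were 0.82, 0.85 and 0.75 over 15 arrays. They are given as a description of the arrays.

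In the alternative pathway Cyp7b1 was the gene closest to a call, with lower means under PB in both genotypes. Its values were 5.84, 5.82, 6.46 and 5.78 in WT DEN and 5.07, 5.50, 5.52 and 5.02 in WT DEN + PB. They were 5.97, 5.83, 5.82 and 6.30 in KO DEN and 5.63, 4.82, 6.07 and 5.06 in KO DEN + PB. In WT all 4 arrays with PB lay below all 4 without it, the only comparison of 2 groups in which any of the 10 genes did not overlap, while 5.16% of all genes did not overlap there. In KO the groups overlapped through replicate 3 of DEN + PB. The PB effect was -0.70 ± 0.25 in WT (limma adjusted p = 0.400), a mean 1.62-fold lower, where the exact permutation p of 0.0286 is the smallest that 4 against 4 mice allow. It was -0.59 ± 0.25 in KO (adjusted p = 0.333, exact p = 0.143).

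Averaged over both genotypes the PB effect on Cyp7b1 was -0.64 ± 0.18 (SE; 95% interval -1.01 to -0.27), a mean 1.56-fold lower, with an unadjusted p of 0.0021 and an adjusted p of 0.0763 by limma, and an exact permutation p of 0.00204 within genotypes. It was called in 2 of 27 alternatives, over which the limma adjusted p reached 0.631. These were the set without KO DEN + PB replicate 3, at -0.75 and adjusted p = 0.0183, and 1 background correction chosen after seeing the data. The PB effects of the genotypes differed by -0.11, with an interval of -0.85 to 0.63. Within slides the PB effect was -0.34, -0.78 and -1.39 in WT and -0.77, -1.15 and 0.01 in KO, on the 3 slides with both groups. KO minus WT under DEN was 0.01, and its interval of -0.52 to 0.53 held no 1.5-fold change.

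Cyp27a1 had group means within 0.18 of each other. Its values were 3.45, 3.33, 2.22 and 3.63 in WT DEN and 3.84, 3.13, 2.91 and 2.60 in WT DEN + PB. They were 3.34, 1.78, 3.45 and 3.50 in KO DEN and 3.37, 3.51, 2.45 and 3.48 in KO DEN + PB. In 3 of the 4 groups a single array lay further below the other 3 than those 3 lay apart, and the group SDs were 0.51 to 0.83. The largest of the 4 differences between groups was a PB effect in KO of 0.18 with an interval of -0.67 to 1.03, and without KO DEN replicate 2 it was -0.23.

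**Figure D3:**
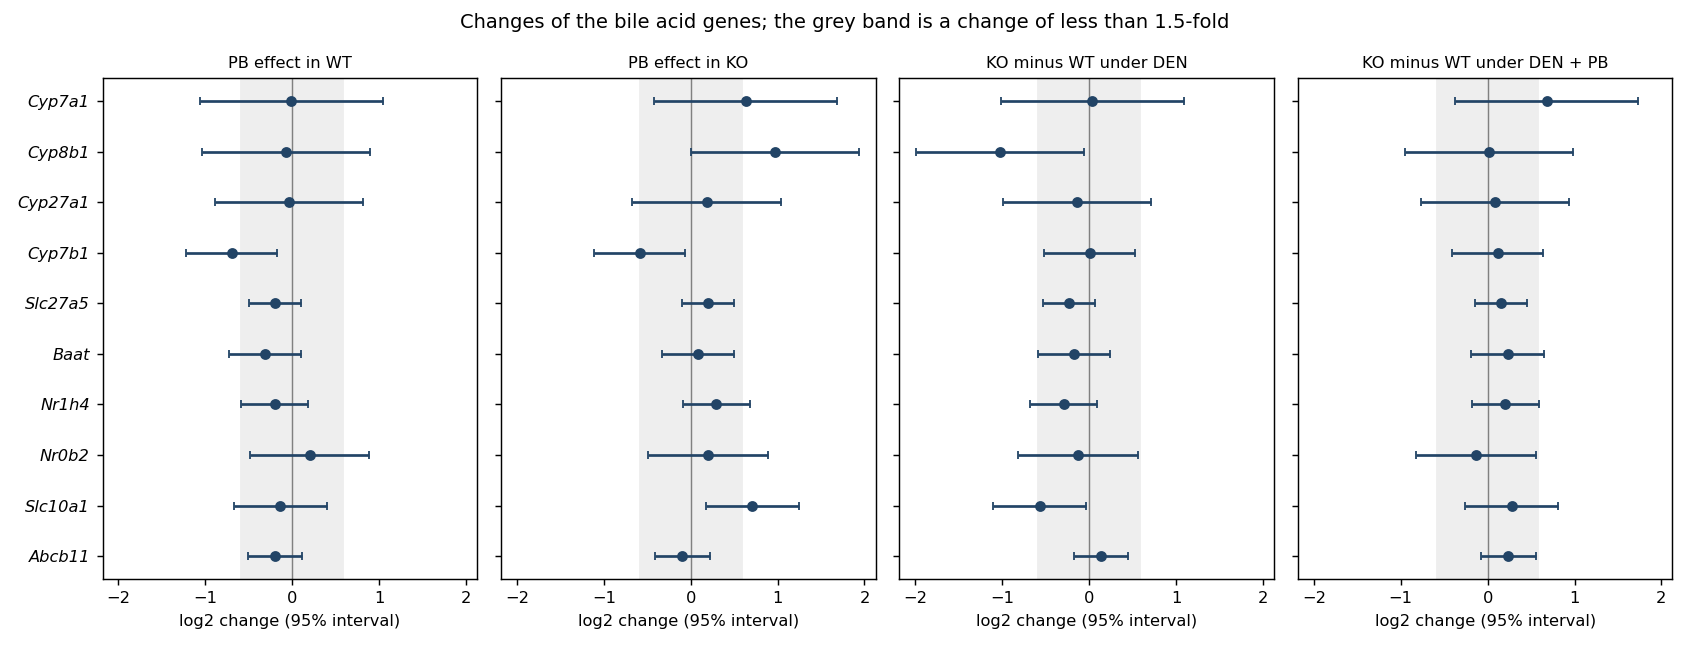
Log2 change (horizontal axis) with its 95% interval from limma for the 10 bile acid genes in 4 comparisons; the grey band marks changes of less than 1.5-fold. Cyp7b1 lies left of 0 for PB in both genotypes, Slc10a1 lies right of 0 for PB in KO and left of 0 for KO minus WT under DEN, and the intervals of Cyp7a1, Cyp8b1 and Cyp27a1 are the widest.

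The conjugating enzymes were among the steadiest of the 10 genes. Slc27a5 had values of 7.70, 7.32, 7.64 and 7.27 in WT DEN and 7.11, 7.22, 7.35 and 7.47 in WT DEN + PB. It had 7.19, 7.24, 7.44 and 7.12 in KO DEN and 7.58, 7.45, 7.31 and 7.44 in KO DEN + PB. Its intervals lay within 1.5-fold in 6 of the 7 comparisons, the exception being the difference of the PB effects, -0.39 with an interval of -0.82 to 0.03. The PB effect was -0.19 in WT and 0.20 in KO (adjusted p = 0.887 and 0.681). For Slc27a5 these data therefore bound the PB effect below 1.5-fold in each genotype.

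Baat had values of 6.22, 6.05, 6.38 and 5.60 in WT DEN, 5.51, 5.51, 6.10 and 5.86 in WT DEN + PB, 5.85, 6.21, 5.69 and 5.82 in KO DEN and 5.89, 5.71, 6.27 and 6.04 in KO DEN + PB. The PB effect was -0.32 in WT (adjusted p = 0.840) with an interval of -0.73 to 0.10, and 0.09 in KO with an interval of -0.33 to 0.50. All groups overlapped. The 2 probes of Baat did not follow each other, with r = -0.13 and rho = -0.10 over 16 arrays, so the order of mice for this gene depends on the probe. Group means of the second, dimmer probe were 3.36, 3.18, 3.25 and 3.26 in the same order of groups.

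The bile acid sensor Nr1h4 and its target Nr0b2 were not called. Nr1h4 had values of 4.99, 4.95, 5.06 and 4.53 in WT DEN and 4.36, 4.69, 4.96 and 4.70 in WT DEN + PB. It had 4.56, 4.99, 4.53 and 4.27 in KO DEN and 4.99, 4.97, 4.98 and 4.60 in KO DEN + PB. The PB effect was -0.20 in WT and 0.29 in KO (adjusted p = 0.929 and 0.596), and the difference between them was -0.50 with an interval of -1.04 to 0.05 (adjusted p = 0.886). Without KO DEN replicate 2, which was the highest of its group, the difference was -0.63 (unadjusted p = 0.021, adjusted p = 0.622).

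Nr0b2 had values of 1.52, 0.83, 0.66 and 1.64 in WT DEN and 1.62, 1.77, 0.79 and 1.27 in WT DEN + PB. It had 1.36, -0.05, 1.54 and 1.29 in KO DEN and 1.38, 1.48, 1.02 and 1.04 in KO DEN + PB. The PB effect was 0.20 in each genotype (interval -0.49 to 0.89 in both), and the difference between the effects was 0.00. Without KO DEN replicate 2 the PB effect in KO was -0.17, so its direction there rested on 1 mouse. Nr0b2 and Cyp8b1, a gene that it represses, had their lowest values of 16 on the same array.

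Of the transporters, Slc10a1 had its lowest group mean in KO DEN and passed no comparison. Its values were 5.28, 5.02, 4.88 and 5.07 in WT DEN and 5.08, 4.82, 5.08 and 4.73 in WT DEN + PB. They were 4.61, 3.54, 5.09 and 4.73 in KO DEN and 5.33, 5.49, 4.88 and 5.12 in KO DEN + PB. The means ran from KO DEN (4.49) through WT DEN + PB (4.93) and WT DEN (5.07) to KO DEN + PB (5.20), and neighbours in this order lay within their spread. The PB effect in KO was 0.71 ± 0.25 (unadjusted p = 0.0127, limma adjusted p = 0.215, exact p = 0.0571), against -0.14 in WT (adjusted p = 0.988). The difference of the PB effects was -0.85 ± 0.36 (unadjusted p = 0.031, adjusted p = 0.770), and KO minus WT under DEN was -0.57 ± 0.25 (adjusted p = 0.219, exact p = 0.114).

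Without KO DEN replicate 2 these values for Slc10a1 were 0.39, -0.53 and -0.25, each smaller by over 1.5 times. Within slides the PB effect in KO was 1.58, 0.88 and -0.03. With the slide as a block it was 0.77 (adjusted p = 0.207).

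Abcb11, the bile salt export pump, kept within narrow limits. Its values were 7.27, 7.03, 7.26 and 6.93 in WT DEN and 6.86, 7.01, 6.73 and 7.11 in WT DEN + PB. They were 7.10, 7.39, 7.31 and 7.25 in KO DEN and 7.30, 7.20, 7.32 and 6.84 in KO DEN + PB. In all 7 comparisons its interval lay within 1.5-fold, and the PB effect was -0.20 in WT and -0.10 in KO. The genotype effect averaged over treatments was 0.19 (interval -0.03 to 0.41, adjusted p = 0.225). Over the 10 genes, the intervals lay within 1.5-fold for 2 genes for PB in WT, for 3 for PB in KO and for 3 for KO minus WT under DEN, where 50.05%, 47.2% and 40.5% of all genes did.

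With the scaling used here the signs of the changes were unevenly split, although most were small. For PB in WT 9 of 10 genes had a value below 0 (median -0.17, against -0.02 over all genes, of which 54.1% were below 0), and for PB in KO 2 of 10 did (median 0.20, against 0.01). The difference of the effects was below 0 for 9 of 10 genes (median -0.40, against -0.04). In the comparison of KO with WT 7 of 10 genes were below 0 under DEN (median -0.15, against -0.04) and 1 of 10 under DEN + PB (median 0.18, against 0.03). Some other lists of genes were split in like manner. For PB in WT 8 of 8 hepatocyte markers (median -0.25) and 13 of 17 other genes of synthesis and conjugation (median -0.21) were below 0, and for the difference of the effects 8 of 8 (median -0.26) and 15 of 17 (median -0.27) were. Of 13 regulators 9 were below 0 in each (median -0.15 and -0.13). Others were not split so. For PB in WT 5 of 12 transport genes (median 0.17) and 1 of 5 cholangiocyte markers (median 0.76) were below 0. For the difference 6 of 12 (median 0.03) and 0 of 5 (median 1.29) were. The signs also depend on the scaling. Without scaling between arrays, KO minus WT under DEN + PB was above 0 only for Cyp7a1 (0.34). The other genes ran from -0.47 for Nr0b2 to -0.06 for Slc10a1. Genes whose PB effect in KO then turned below 0 include Slc27a5 (-0.10), Baat (-0.21) and Nr1h4 (-0.003). These comparisons share groups, so their signs are not independent of each other. The genes also share arrays, as KO DEN replicate 2 shows.

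Some other genes of bile acid handling moved with PB, and most of those called were transporters. Whether their share of calls differs from that of the 10 genes was not tested. Of 47 further bile acid genes listed, 42 were tested. Of these, 3 rose and 0 fell with PB in WT (7.14%, against 0.737% of all genes), and 3 rose and 2 fell in KO (11.9%, against 2.12%). Of the 12 transport genes tested, 3 were called in WT and 4 in KO, of the 17 genes of synthesis and conjugation 0 and 1, and of the 13 regulators 0 and 0. These lists were made with earlier results of the data known, and their counts are a description.

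**Figure D4:**
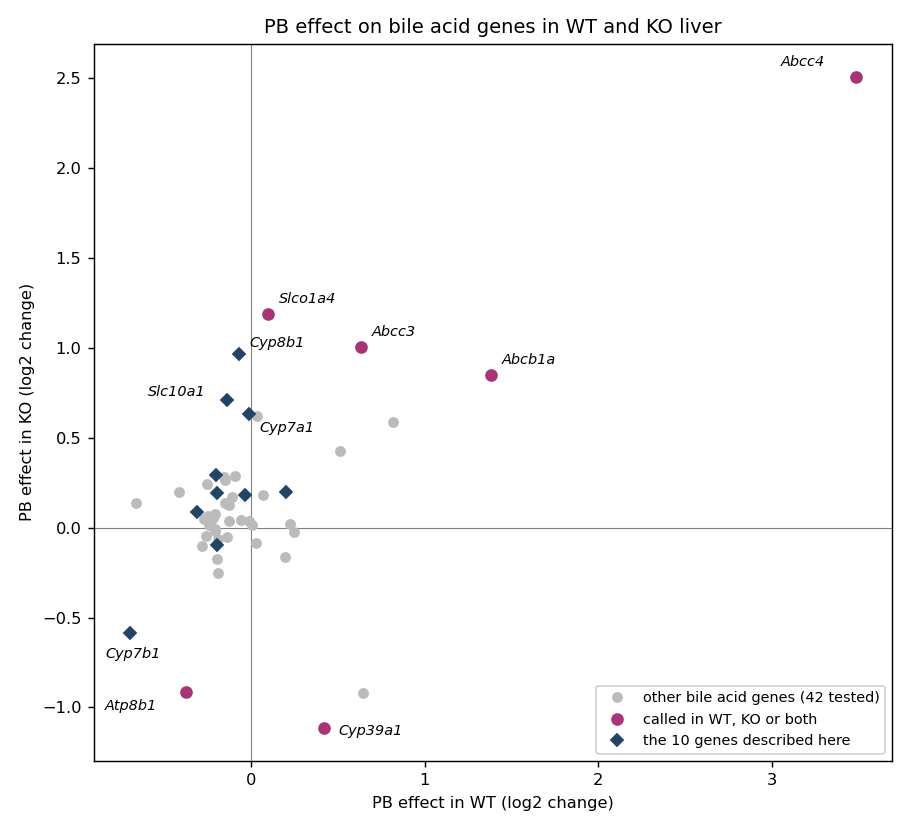
PB effect in WT (horizontal axis) and in KO (vertical axis), both as log2 change, for the 10 bile acid genes (blue diamonds) and 42 other bile acid genes (circles, purple where called in WT, KO or both). The 10 genes lie between -0.70 and 0.20 in WT and between -0.59 and 0.97 in KO, while Abcc4 stands at 3.49 and 2.51.

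Abcc4, which exports bile acids and drugs back to the blood, had the largest rise. Its values were -0.26, -0.30, -0.32 and -0.56 in WT DEN and 2.50, 3.11, 3.10 and 3.79 in WT DEN + PB, and 0.08, -0.55, -0.01 and -0.63 in KO DEN and 2.75, 1.74, 2.06 and 2.37 in KO DEN + PB. It rose by 3.49 ± 0.26 in WT (11.2-fold, adjusted p = 2.16e-06) and by 2.51 ± 0.26 in KO (5.70-fold, adjusted p = 4.79e-05), and the difference of these effects, 0.98, was not called (adjusted p = 0.670). Under DEN + PB it was lower in KO than in WT by -0.90 (adjusted p = 0.0487), a call lost with the slide as a block (adjusted p = 0.0576) and without 13 of the 16 arrays, left out one at a time. Within slides this value was between -1.04 and -0.74.

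Abcc3, a second basolateral exporter, had means of 4.72 and 5.36 in WT without and with PB and of 4.57 and 5.58 in KO (SD 0.09 to 0.23). It rose by 0.63 ± 0.14 in WT (adjusted p = 0.0465) and by 1.01 ± 0.14 in KO (adjusted p = 0.000732). The call in WT was lost without 15 of the 16 arrays, left out one at a time, and with the slide as a block (adjusted p = 0.178). Averaged over genotypes Abcc3 rose by 0.82 ± 0.10 (adjusted p = 9.48e-05).

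Slco1a4, a basolateral uptake carrier, rose with PB in KO by 1.19 ± 0.25 (adjusted p = 0.0213), from 0.35 to 0.77 on the KO DEN arrays to 1.55 to 1.93 on the KO DEN + PB arrays. In WT its PB effect was 0.10 (adjusted p = 0.993), and the difference of the effects, -1.09, was not called (adjusted p = 0.522). Abcb1a, a canalicular drug exporter, rose with PB in WT by 1.38 ± 0.28 (adjusted p = 0.0258), from -4.16 to -3.94 up to -3.24 to -2.15. In KO it had 0.85 (adjusted p = 0.162), and averaged over genotypes it rose by 1.12 ± 0.20 (adjusted p = 0.00402).

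Atp8b1, a canalicular lipid flippase, fell with PB in KO by 0.92 on the log2 scale (SE 0.16, adjusted p = 0.00639), and its value in WT was -0.37 (adjusted p = 0.613). Cyp39a1, an oxysterol hydroxylase of bile acid synthesis like Cyp7b1, fell with PB in KO by 1.12 (SE 0.26, adjusted p = 0.0358) and had 0.42 in WT (adjusted p = 0.834). Their differences between genotypes, 0.54 and 1.54, were not called (adjusted p = 0.764 and 0.276). Under DEN + PB Cyp39a1 was lower in KO than in WT by -1.53 ± 0.26 (adjusted p = 0.00207), with KO arrays at -1.03 to 0.32 and WT arrays at 0.85 to 1.51. That call was lost with the normexp background correction (limma adjusted p = 0.106). Ephx1, microsomal epoxide hydrolase, rose by 0.70 ± 0.17 when averaged over genotypes (adjusted p = 0.0389), a call lost without 12 of the 16 arrays.

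The calls of Abcb1a and Cyp39a1 for PB in 1 genotype were each lost without 7 of the 16 arrays, left out one at a time, and with the slide as a block (adjusted p = 0.0624 and 0.0703). The call of Slco1a4 for PB in KO was lost without 5 of the 16 arrays and that of Atp8b1 without 0. With the normexp background correction the calls of Abcc4 for PB were kept, and all other calls of a PB effect among these genes were lost. There Abcb1a, a dim probe, had 0.30 in WT (adjusted p = 1.000) and 0.35 averaged over genotypes, and Abcc3 had 0.92 in KO (adjusted p = 0.515).

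**Figure D5:**
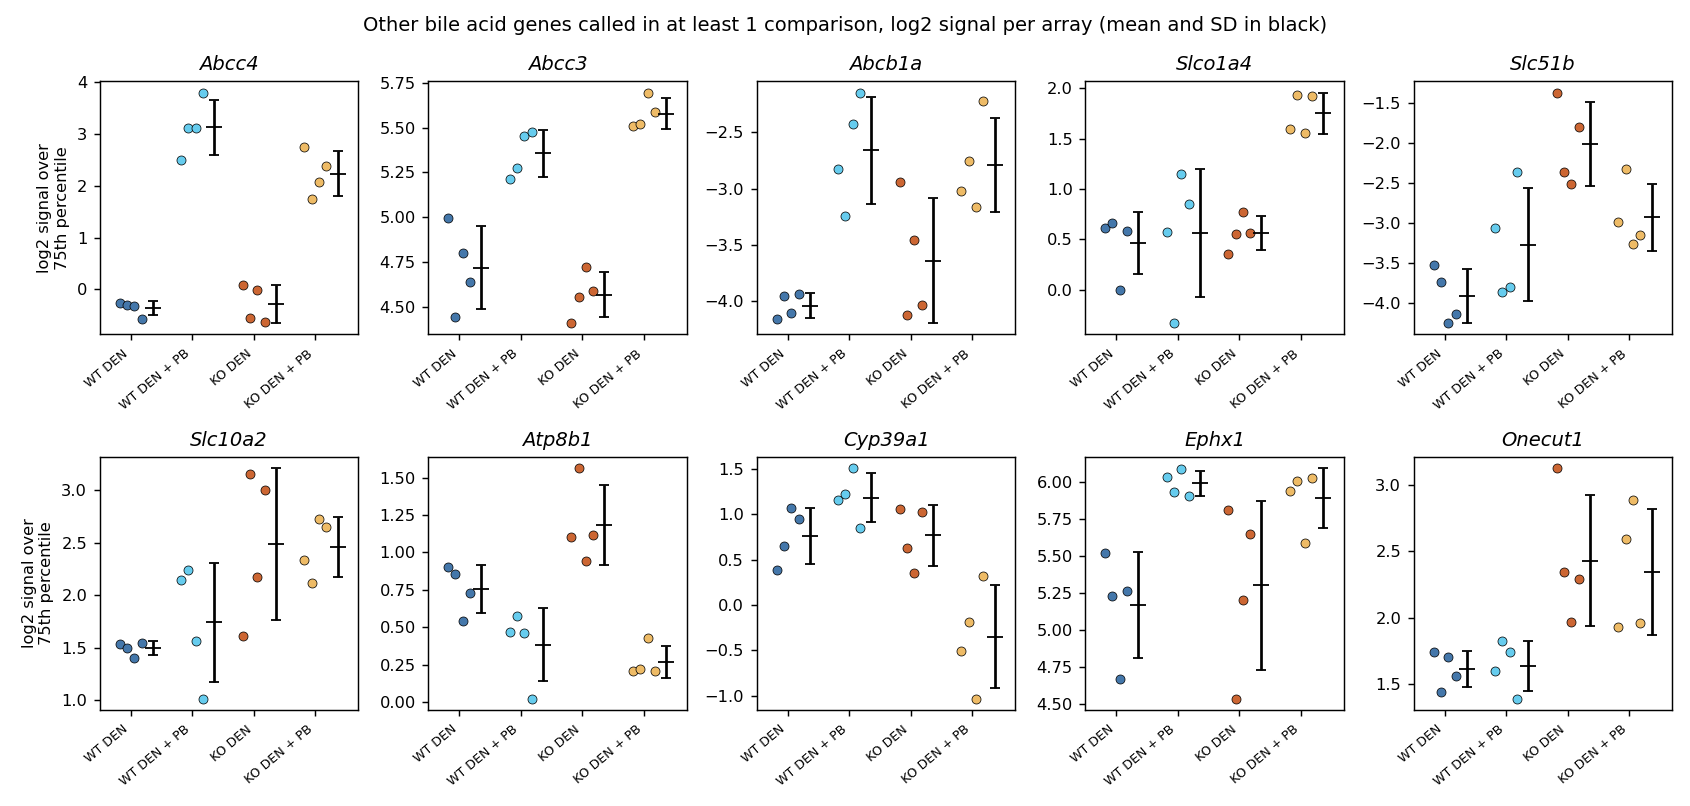
Log2 signal over the 75th percentile of the array (vertical axis, a range of its own in each panel) for the 10 other bile acid genes called in at least 1 comparison; each point is 1 mouse, and the black mark and bar are the mean and SD of 4 mice. Abcc4 and Abcc3 separate mice with PB from mice without it in both genotypes, and Slc51b is higher in KO DEN than in WT DEN.

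Between genotypes, 1 of the 42 other bile acid genes was called under DEN (2.38%, against 2.73% of all genes) and 3 under DEN + PB (7.14%, against 7.56%), shares near the background. The one under DEN was Slc51b, a subunit of the basolateral organic solute transporter, with -3.53, -3.74, -4.24 and -4.13 in WT DEN and -1.37, -2.36, -2.51 and -1.80 in KO DEN, higher in KO by 1.90 ± 0.33 (adjusted p = 0.00637). With the normexp background correction this value was 0.25 (adjusted p = 0.743) and the averaged genotype effect on Slc51b 0.08 (adjusted p = 0.840), so both calls were lost. Its partner subunit Slc51a was not well above background on all arrays of any group and was not tested. Under DEN + PB the genes were Cyp39a1 and Abcc4, lower in KO, and Slco1a4, higher in KO by 1.19 (adjusted p = 0.00908). Averaged over treatments 4 of the 42 genes were higher and 1 lower in KO (11.9%, against 8.8% of all genes). Slc51b was higher by 1.12 (adjusted p = 0.0044), Slco1a4 was higher by 0.64 (adjusted p = 0.0215), and Cyp39a1 was lower at -0.76 (adjusted p = 0.00996). In the same comparison Slc10a2, the sodium-dependent bile acid carrier of ileum and bile ducts, was higher in KO by 0.85 ± 0.22 (adjusted p = 0.0151) and Onecut1, a transcription factor of hepatocytes and bile ducts, by 0.76 ± 0.17 (adjusted p = 0.00724). These 2 calls were lost only without scaling between arrays. With normexp the genotype calls of Cyp39a1 (averaged, limma adjusted p = 0.168), Slco1a4 and Abcc4 were lost too. The averaged call of Slco1a4 was lost in 7 of 27 alternatives, among them the slide as a block (limma adjusted p = 0.0564).

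Markers of other liver cells also differed between groups. Of 5 cholangiocyte markers tested, Krt19 and Krt7 rose with PB in WT, where 0.737% of all genes were called. Sox9 of the same list lay lower with PB in WT, at -0.05 to 0.52 against 0.37 to 0.95, and was not called. For PB in KO 0 of 5 were called (against 2.12% of all genes), and 0 of 5 for KO minus WT under DEN (against 2.73%). With PB, Krt19, Krt7 and Epcam were lower in KO than in WT, where 7.56% of all genes were called. The summed linear signal of the 6 listed markers ranged from 11.9 to 31.8 times the 75th percentile in WT DEN, 17.7 to 35.5 in WT DEN + PB, 12.2 to 36.5 in KO DEN and 11.97 to 15.5 in KO DEN + PB. Most of this sum was Spp1, which lay at 3.34 to 4.86 in WT DEN on the log2 scale, against 0.37 to 0.95 for Sox9. Of 4 tested markers of leukocytes and Kupffer cells, Cd68, Clec4f and Ptprc were lower in KO under DEN + PB and Cd68 under DEN. Of all genes 7.56% and 2.73% were called there. Cd3e, also tested, lay higher in KO under DEN + PB, at -2.53 to -1.95 against -2.78 to -2.55, and was not called. Sums of the 5 listed markers, mostly Clec4f, were 13.9 to 23.4 and 16.8 to 17.6 in the WT groups. In the KO groups they were 9.59 to 13.2 and 6.41 to 10.6. The hepatocyte sums ranged from 1559 to 2019 in WT DEN, 1472 to 1774 in WT DEN + PB, 1837 to 2104 in KO DEN and 1823 to 2214 in KO DEN + PB. Sums of stellate cell markers were 7.35 to 13.8 in WT and 5.00 to 8.09 in KO, and those of endothelial markers 11.0 to 13.7 in WT, 7.43 to 12.05 in KO DEN and 7.37 to 9.11 in KO DEN + PB. Of the 4 pancreatic acinar markers Pnlip, Cpa1 and Prss2 were not well above background on all arrays of any group. The fourth, Cela1, rose with PB averaged over genotypes by 1.22 and was lower in KO averaged over treatments, at -1.30, with its lowest value of 16 arrays, -5.26, on KO DEN replicate 2. The part of these cell types in the bile acid values was not tested.

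Some clock genes set the KO DEN group apart as well. Cyp7a1 and other genes of bile acid synthesis are known to follow the time of day, and the time of collection was not given in the sources used here. Dbp, a clock output gene, was at 0.48 to 0.92 on the 4 KO DEN arrays and at 3.45 to 6.22 on the other 12. Nr1d1 and Nr1d2 also lay lower on the 4 KO DEN arrays than on the other 12, and the other listed clock genes overlapped another group. Of 14 clock genes tested, a list chosen after values were seen, 8 were called for PB in KO (5 higher and 3 lower, against 2.12% of all genes). For KO minus WT under DEN 2 were called (against 2.73%), and 0 for PB in WT (against 0.737%). Cry1, one of the 8, was at -4.25 to -3.37 in KO DEN + PB, while KO DEN (-2.73 to -2.03) overlapped WT DEN (-3.41 to -2.27). The low means of Cyp8b1 and Slc10a1 lay in the KO DEN group, and the part of the clock genes in them was not tested.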

How the data were processed

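Liver RNA of 16 mice had been labeled with Cy3 and hybridized to 1-color Agilent arrays. The deposited column used is the processed intensity, not log transformed. The authors' software (Feature Extraction 12.0.3.1) had corrected it for background and trends within the array without scaling it between arrays. The deposited series table held its means per probe to within 5e-04 percent. Here outlier spots (71 to 122 per array) were left out, the remaining spots of each probe averaged, and the 75th percentile of each array was subtracted from log2 of the deposited intensity. Probes entered the test if in 1 or more groups every array had them well above background (24456 probes, 13302 genes). RefSeq (GRCm38.p6) gave symbols to 68.5% of 41174 probes, and the brightest probe stands for a gene. Group means were fitted over 16 arrays with limma 3.58.1 in R 4.3.3, with Benjamini-Hochberg adjustment over all probes tested. On simulated data for the PB effect in WT (24456 probes), 52% of changes of 1 and 91% of changes of 2 on the log2 scale were recovered. Exact permutation tests were two-sided, with 70 assignments of 4 against 4 mice and 4900 within strata. Alternatives were normexp (offset 50, on the median signal, since the planned mean signal was not among the columns used here), quantile scaling, the series table, other filters, blocks for slide and replicate number, no moderation, only the arrays compared, the mean of a gene's probes, and leaving out each array. Each of the 4 slides held at least 3 groups, and all were scanned on 1 date. The number of arrays limits the precision. The genes, lists and alternatives were chosen with earlier results of these data known. Named are the 10 genes, Gadd45b, other bile acid genes called in any comparison, the 3 genes most correlated with the gene of widest group means, and markers.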

Additional observations from a re-analysis of the deposited data

Results flagged for a closer look

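Among the 40 combinations of a bile acid gene and a group, 6 held an array whose distance to the nearest of the other 3, over the range of the group, exceeded the 95% critical value of Dixon's test for 4 samples, a limit that chance passes in about 1 of 20 groups. On KO DEN replicate 2 these were Cyp27a1 at 1.78, against 3.34 to 3.50 on the other arrays of the group, and Nr0b2 at -0.053, against 1.29 to 1.54. On KO DEN + PB replicate 3 they were Cyp8b1 at 1.91, against 2.87 to 2.98, and Cyp27a1 at 2.45, against 3.37 to 3.51. The others were Cyp7b1 on WT DEN replicate 3 at 6.46, against 5.78 to 5.84, and Nr1h4 on KO DEN + PB replicate 4 at 4.60, against 4.97 to 4.99. Cyp8b1 and Cyp27a1 were both set apart on KO DEN + PB replicate 3, the array without which the averaged PB effect on Cyp7b1 passed the test. What set these arrays apart was not tested.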

How the results depend on the processing

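The count of bile acid genes called stayed at 0 of 10 in all 7 comparisons under every alternative run, with an exception for the averaged PB effect. There Cyp7b1 was called (1 of 10) in the array set that left out KO DEN + PB replicate 3 (-0.75, adjusted p = 0.0183) and under normexp after leaving out spots with outlying local background, an alternative chosen after seeing the data (-0.65, adjusted p = 0.0212). When single arrays were left out the count was thus 0 to 1 for that comparison and 0 to 0 for the other 6. Of the 70 values of the 10 genes, 39 changed sign under some alternative, reaching at most 0.49 in size with the other sign. Of 828 values of the larger bile acid changes and the called genes under the alternatives, 702 kept their direction and side of the threshold, 124 lost a call, 2 gained one and 0 reversed. In the order of comparisons used above, 98, 282, 0, 363, 1005, 281 and 1171 genes were called in all. With normexp these were 12, 40, 0, 12, 36, 60 and 296, with the slide as a block 64, 232, 0, 137, 866, 258 and 1068, and without the filter 66, 159, 0, 140, 638, 207 and 1049. The series table without scaling gave 61, 147, 1, 54, 1084, 143 and 961. It moved the median of all probes by -0.295 for PB in KO, and 54 genes were then called higher and 93 lower, against 167 and 115 with scaling. It moved the median by -0.285 for KO minus WT under DEN + PB, with 31 higher and 1053 lower, against 231 and 774. Replicate numbers did not pair the mice, as deviations of same-numbered arrays correlated between -0.21 and 0.35, over 0.1 in 6 of 24 pairs, and 4 of 16 arrays correlated best with their own number. With the replicate block 0 of 10 bile acid genes were called in each comparison, and 101, 263, 0, 406, 983, 274 and 1193 genes in all. With 4 mice per group, changes of 1 on the log2 scale were recovered in 52% of simulated cases. These changes were placed on probes drawn at random from all those tested. Cyp7a1, Cyp8b1 and Cyp27a1 varied more than most genes, so the 52% does not apply to them. In these genes changes of 1 may be missed as well as smaller ones.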
